A study of Mus musculus with 17 samples.

Results

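The genes described here are the Gadd45 family (Gadd45a, Gadd45b and Gadd45g) and a set of p53 pathway genes (Cdkn1a, Mdm2, Ccng1, Trp53, Perp and Fas) in mouse brain after a transient arterial occlusion. They were found by gene symbol in the annotation of the array. Of these 9 genes, 8 had at least 1 probe set, out of 8252 genes with an assigned symbol. They gave 11 of the 12488 probe sets of the array, 4 for the Gadd45 family and 7 for the p53 targets. No probe set carried the symbol Trp53, so no value is given for p53 mRNA. Gadd45b, Cdkn1a and Fas had 2 probe sets each, and the one with the higher mean over all 17 arrays is called the lead probe set, except that 1 of those of Fas belongs to the array's own controls and could not lead. Suffixes _f_at and _s_at in a probe set name mark probes that may match several related transcripts.

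Total RNA came from grey and white matter supplied by the middle cerebral artery and was hybridised to 17 oligonucleotide arrays, 12 carrying a pool of 6 brains and 5 carrying a single brain. Control pools (n = 3) came from mice given saline and drug control pools (n = 3) from mice given AEOL 10150, a catalytic antioxidant, with tissue taken 6 h after the injection and no ischemia. Ischemic pools (n = 3) had 1 h of ischemia and 6 h of reperfusion. Treated ischemic pools (n = 3) and the single brains (n = 5) had the same ischemia and reperfusion with AEOL 10150 given intravenously in between. The labels state no strain, age, sex or dose, no sham operation for the controls, and no vehicle for the untreated ischemic mice. A pool averages 6 brains, so the spread between pools understates the spread between animals. The labels do not say whether the pools of a group came from separate mice, and p-values measure the spread between these arrays. The description of drug control pool 1 names saline and that of treated ischemic pool 1 names no drug, against their titles; the titles were followed, and results that change without these arrays are given with both values.

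The Gadd45 proteins are small acidic proteins named for growth arrest and DNA damage. They have no enzymatic activity of their own and act by binding partners, among them the kinase Map3k4 at the head of a p38 and JNK cascade, the replication clamp PCNA, the Cdk1 and cyclin B complex and the cyclin-dependent kinase inhibitor p21. Gadd45a is a classical p53 target, while Gadd45b is known as a gene induced by NF-kB, by TGF-beta and by neuronal activity, and Gadd45g as a gene induced by cytokines. p53 is a transcription factor held low by the ubiquitin ligase Mdm2, whose own gene p53 activates. Other p53 targets measured here stop the cell cycle (Cdkn1a, which encodes p21), feed back on p53 (Mdm2 and Ccng1, which encodes cyclin G1) or promote cell death (Perp, a membrane protein, and Fas, a death receptor).

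The promoters of the 3 Gadd45 genes are shown first with that of the upstream annotated start of Cdkn1a. The window of the second annotated start of Cdkn1a is described below but not printed. In the pools described below, Gadd45b and Gadd45g were called after ischemia, and Gadd45a and Cdkn1a were not. Differences between these genes, and any link of their promoters to the values, were not tested. Each sequence is the 250 bases before the annotated start in RefSeq on GRCm38.p6, written 5′ to 3′ on the strand of the gene. Capitals mark matches to CCAAT, to TATAA or to the p53 half-site motif, searched on both strands. The Gadd45b window lies at chr10:80929841-80930090 on the plus strand, Gadd45g at chr13:51846425-51846674 on the plus strand, Gadd45a at chr6:67037408-67037657 on the minus strand and Cdkn1a at chr17:29090729-29090978 on the plus strand.
Gadd45b: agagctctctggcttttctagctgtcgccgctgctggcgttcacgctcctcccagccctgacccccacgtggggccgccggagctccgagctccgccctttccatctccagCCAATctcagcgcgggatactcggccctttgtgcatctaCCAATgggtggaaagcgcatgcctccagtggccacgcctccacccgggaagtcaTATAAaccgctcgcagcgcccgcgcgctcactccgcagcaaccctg
Gadd45g: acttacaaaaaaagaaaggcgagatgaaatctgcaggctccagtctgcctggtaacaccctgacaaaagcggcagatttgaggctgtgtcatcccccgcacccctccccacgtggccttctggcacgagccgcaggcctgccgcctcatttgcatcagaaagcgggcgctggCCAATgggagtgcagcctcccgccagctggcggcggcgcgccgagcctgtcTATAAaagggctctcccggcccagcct
Gadd45a: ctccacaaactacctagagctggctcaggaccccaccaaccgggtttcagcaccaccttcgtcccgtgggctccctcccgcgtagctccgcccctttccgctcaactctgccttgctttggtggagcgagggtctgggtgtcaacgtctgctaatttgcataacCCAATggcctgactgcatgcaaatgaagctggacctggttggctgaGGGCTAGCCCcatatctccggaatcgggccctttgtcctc
Cdkn1a: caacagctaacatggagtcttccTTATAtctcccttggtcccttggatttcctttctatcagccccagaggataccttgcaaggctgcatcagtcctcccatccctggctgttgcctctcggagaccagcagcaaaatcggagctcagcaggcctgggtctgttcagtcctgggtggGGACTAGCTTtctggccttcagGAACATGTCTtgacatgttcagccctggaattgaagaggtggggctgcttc

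The Gadd45b window held 2 matches to CCAAT, 139 and 100 bases before the start, and a TATAA 46 bases before it. The Gadd45g window held 1 CCAAT at 78 and a TATAA at 27 bases. Neither window matched the p53 half-site motif. The Gadd45a window held 1 CCAAT at 86 bases and 1 p53 half-site match at 40 bases, and no TATAA. The Cdkn1a window held 2 p53 half-site matches, at 73 and 51 bases, and a TATAA on the opposite strand. A second annotated start of Cdkn1a, with its window at chr17:29093519-29093768, held a TATAA at 25 bases and no half-site match. Mdm2, Ccng1 and Trp53 each had 1 half-site match in this window, and Fas had none. Among 32851 promoter windows of the same length, 7.13% held a p53 half-site match, 33.9% a CCAAT and 22.8% a TATAA. The cyclic AMP response element TGACGTCA (1.55% of windows), the NF-kB motif (3.90%) and the serum response element (1.47%) matched none of these member windows, and the AP-1 motif TGANTCA (6.75%) matched that of Fas only. A match describes letters in these windows and is not evidence of binding, and distal elements were not searched. Perp had no entry in the promoter table.

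Intensities were scaled so that every array had the same trimmed mean, 2500, and values under 109.5 were raised to that floor, 6.77 on the log2 scale. The floor took in 24.3% to 26.5% of each array. A control for RNA integrity, the actin 3′/5′ ratio, was between 1.15 and 1.19 on control pool 3, drug control pool 3 and ischemic pool 3 and between 1.29 and 2.14 on all other arrays. A second such control, the Gapdh 3′/5′ ratio, was between 1.04 and 1.09 on the same pools and between 0.90 and 1.55 on all other arrays. Markers of neurons had mean log2 levels of 13.3 to 14.1 over all groups. The mean level of 4 striatal neuron markers was 11.1 to 11.6 in the control and drug control pools and 10.3 to 11.0 on the arrays with ischemia. For 9 endothelial markers it was 9.22 to 10.1 and 9.70 to 10.4. For 9 neutrophil markers, 2 or 3 of them at the floor on every array of a group, it was 7.50 to 8.29 in the control pools and 8.43 to 8.66 in the ischemic pools, without overlap, but 7.92 to 8.72 in the drug control pools and 8.04 to 8.69 in the pools with both drug and ischemia. The single brains had 7.79 to 8.19. Of 7 neutrophil markers tested, 1 was called in ischemia without the drug, S100a8, higher by 2.15 (limma adjusted p = 0.0255), and none of the other marker lists held a call there. In bulk tissue, fewer cells of a type and less RNA per cell cannot be told apart, and the part of these shifts in the results was not tested.

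After ischemia without the drug, Gadd45b and Gadd45g rose and the p53 targets did not pass the test. Of 10 member probe sets tested, 2 were called with limma at a Benjamini-Hochberg adjusted p under 0.05, the lead Gadd45b probe set and the Gadd45g probe set, against 0.214% of the 10259 probe sets tested. The median difference over the members was 0.11 on the log2 scale, beside 0.03 over all probe sets. By size of rise these probe sets stood at ranks 8 and 37 of all those tested. The values of ischemic and control pools did not overlap for 3 members and for 7.08% of all probe sets. The members were chosen with earlier results of these data known. Here and below, their counts beside the shares over all probe sets are a description and not a test.

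The lead Gadd45b probe set (161666_f_at) had scaled intensities of 764, 908 and 247 in control pools 1 to 3 and 4674, 5676 and 3368 in ischemic pools 1 to 3. Every ischemic pool lay above every control pool, and control pool 3 was the lowest. The difference was 3.01 on the log2 scale (SE 0.43, 8.05-fold, limma adjusted p = 0.0213). The other Gadd45b probe set (102779_at) read 267, 646 and -21.7 in the control pools, the last value being below the floor, and 2569, 2558 and 1670 in the ischemic pools. These groups did not overlap either, and the difference was 3.06 (SE 0.73, limma adjusted p = 0.34), so it missed the threshold with a wider spread. With 1 of 3 control pools at the floor, this difference depends on the floor, and with the floor at the 40th percentile it was 2.11 and called (adjusted p = 0.0121).

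Gadd45g (101979_at) read 1678, 1897 and 1355 in the control pools and 6175, 6996 and 6419 in the ischemic pools. The ischemic pools were close together, with an SD of 0.09 on the log2 scale, and all lay above the controls. The difference was 2.00 (SE 0.24, 4.01-fold, limma adjusted p = 0.0105). These calls depended on single arrays and on the scaling. Leaving out control pool 1 or any 1 ischemic pool took the adjusted p of lead Gadd45b to between 0.057 and 0.127 and that of Gadd45g to between 0.0511 and 0.0772, while the differences stayed between 2.84 and 3.24 for Gadd45b and between 1.95 and 2.04 for Gadd45g. With the arrays of unlike labels left out of the shared fit, which does not alter the differences here, the adjusted p was 0.0258 for Gadd45g and 0.0732 for lead Gadd45b. Scaling the arrays to one median ended both calls (adjusted p 0.0727 and 0.122), and quantile normalization ended that of lead Gadd45b (0.075).

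Gadd45a (102292_at), the family member best known as a p53 target, read 1150, 1327 and 409 in the control pools and 2128, 2714 and 608 in the ischemic pools. The groups overlapped because ischemic pool 3 lay below control pools 1 and 2. Replicate 3 was the lowest array in both groups. The difference was 0.83 (SE 0.57, 95% confidence interval -0.43 to 2.10, limma adjusted p = 1) and did not pass the test. Pools with the same number nevertheless differed in the same direction, by 0.89, 1.03 and 0.57 on the log2 scale. The estimate was 0.30 without control pool 3 and 1.49 without ischemic pool 3.

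**Figure D1:**
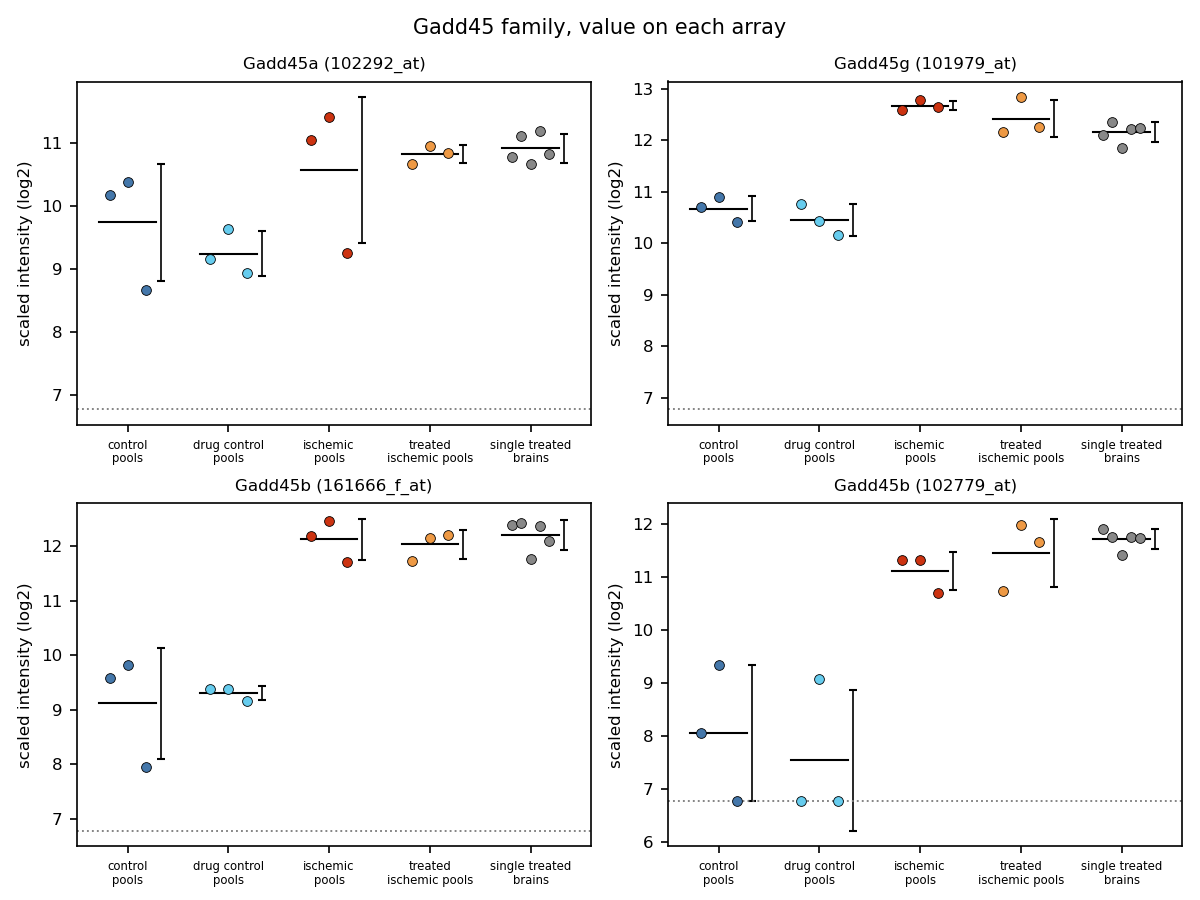
Scaled intensity on a log2 axis of the 4 Gadd45 probe sets on each of the 17 arrays, by group; each point is an array, the horizontal line is the group mean, the bar beside it is 1 SD and the dotted line is the floor at 6.77. All 11 arrays with ischemia lie above all 6 arrays without it for both Gadd45b probe sets and for Gadd45g, while for Gadd45a the ischemic pool 3 lies among the controls.

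None of the p53 targets passed the test in this comparison. Cdkn1a, the p21 gene, read 8601, 12407 and 7339 in the control pools at its lead probe set (94881_at) and 7539, 14171 and 9272 in the ischemic pools. The ranges overlapped almost completely, and the difference was 0.11 (95% confidence interval -0.59 to 0.81). Its other probe set (98067_at) read 4339, 5422 and 1669 in the control pools and 2735, 3097 and 975 in the ischemic pools, with a difference of -0.75 (interval -2.09 to 0.59). Here the same-number differences were -0.67, -0.81 and -0.78, against -0.19, 0.19 and 0.34 at the lead probe set. The intervals of the 2 probe sets overlapped, and their difference was not tested.

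Mdm2 (98110_at), the p53-induced inhibitor of p53, was the steadiest member. It read 5331, 4700 and 4621 in the control pools and 4146, 5046 and 5345 in the ischemic pools, a difference of -0.02 (interval -0.41 to 0.38). That interval excludes a rise of the size seen for Gadd45g. Ccng1 (160127_at) ranged from 1316 to 1442 in the control pools and from 1212 to 1602 in the ischemic pools, a difference of -0.05 (interval -0.53 to 0.44). Perp (97825_at) ranged from 454 to 580 and from 272 to 690, a difference of -0.44 (interval -1.46 to 0.58). Its ischemic pool 1 was the highest of these 6 arrays and the other ischemic pools were the lowest.

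Fas (102921_s_at) was near the detection floor throughout, above it on 8 of 17 arrays, with 2 of 3 control pools and 2 of 3 ischemic pools above. Its fitted difference of 0.11 (interval -0.56 to 0.78) is set largely by the floor. A second probe set for Fas belongs to the array's own control set (AFFX-MurFAS_at) and was not tested. It read 309 to 676 in the control pools, 625 to 735 in the drug control pools, 479 to 870 in the ischemic pools, 564 to 901 where the drug followed ischemia, and 302 to 517 in the single brains. The array also holds 2 probe sets annotated to a Trp53 pseudogene; whether they detect Trp53 mRNA is not known here, and they are given as values only. Of these, 101617_s_at read 101 to 685 and 101618_r_at 636 to 2994 over the 17 arrays.

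**Figure D2:**
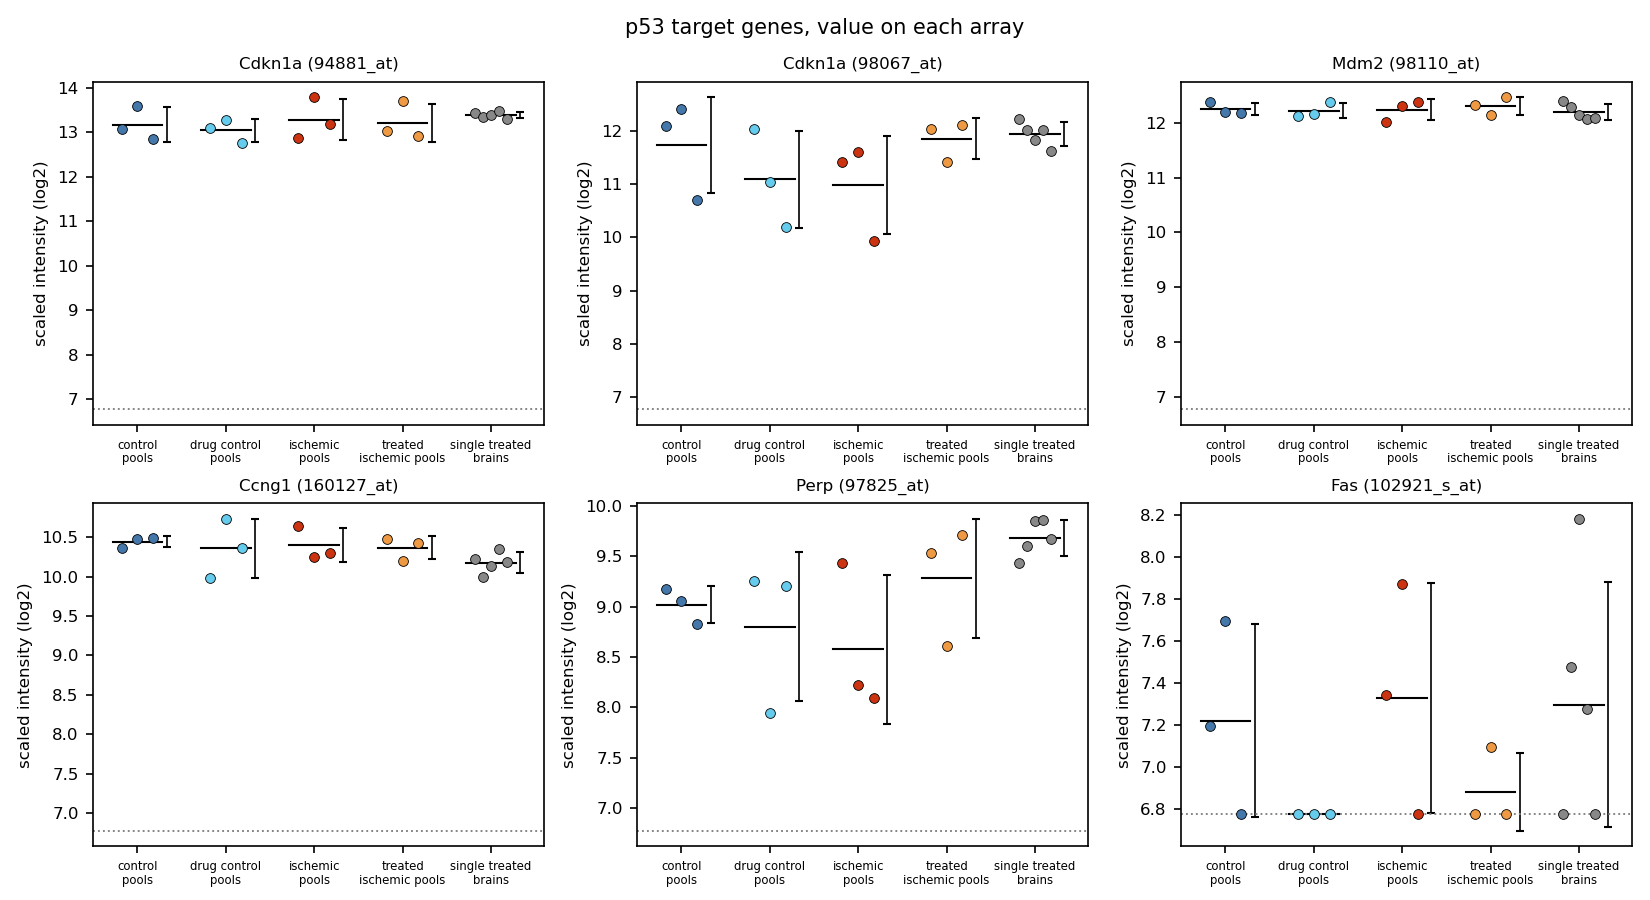
Scaled intensity on a log2 axis of 6 p53 target probe sets on each array, drawn as for the Gadd45 family; points are arrays, lines are means, bars are 1 SD and the dotted line is the floor at 6.77. The ischemic and control pools overlap in every panel, Mdm2 stays between 12.0 and 12.5 on all arrays, and the Fas points lie at or near the floor.

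With AEOL 10150 given on both sides of the comparison, Gadd45g again rose and the p53 targets again did not pass the test. Of 10 members 1 was called, Gadd45g, against 0.0877% of all probe sets tested. Drug control pools read 1737, 1384 and 1136 for Gadd45g and treated ischemic pools 4573, 7311 and 4919. All treated ischemic pools lay above all drug control pools, by 1.97 on the log2 scale (SE 0.24, 3.92-fold, limma adjusted p = 0.017). This call ended without drug control pool 2 or 3 or without any 1 treated ischemic pool, with adjusted p between 0.058 and 0.108 and differences between 1.76 and 2.10. Without both arrays of unlike labels the difference was 2.26 (adjusted p = 0.0764). Treated ischemic pools 2 and 3 were deposited on other scales than the rest of the pools; with that scale as a block the difference was 1.71 (adjusted p = 0.469), and with arrays scaled to one median it was 2.01 (0.0645).

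The lead Gadd45b probe set read 669, 664 and 572 in the drug control pools, the tightest group for this gene, and 3407, 4555 and 4740 in the treated ischemic pools. The groups were far apart, yet the difference of 2.73 (SE 0.43, 6.61-fold, limma unadjusted p = 7.68e-05, adjusted p = 0.0788) missed the threshold. The other Gadd45b probe set read 8, 543 and -25.8 in the drug control pools, so 2 of 3 were at the floor, and 1714, 4058 and 3241 in the treated ischemic pools. Its difference was 3.92 (SE 0.73, limma adjusted p = 0.165), and its size depends on the floor. Gadd45a read 573, 793 and 493 in the drug control pools and 1628, 1972 and 1842 in the treated ischemic pools. Those groups did not overlap, as for 7.39% of all probe sets, with a difference of 1.57 (SE 0.57, unadjusted p = 0.0196, limma adjusted p = 1).

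The p53 targets overlapped between drug control and treated ischemic pools at all 6 tested probe sets. Overlap was the usual case, since 7.39% of all probe sets tested did not overlap there. The difference was 0.18 (interval -0.52 to 0.87) for lead Cdkn1a, 0.09 (-0.31 to 0.48) for Mdm2, 0.01 (-0.48 to 0.49) for Ccng1, 0.48 (-0.54 to 1.50) for Perp and 0.11 (-0.56 to 0.77) for Fas. The other Cdkn1a probe set differed by 0.76 (-0.58 to 2.10), the opposite sign to its difference without the drug. Between pools of the same number, which did not pair across these groups, that difference ran from 0.00 to 1.91, so the spread was as large as the estimate.

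Averaging the ischemia responses with and without the drug uses all 12 pools and gave narrower errors than either response alone. Of 10 members 3 were called, all of the Gadd45 family, against 0.448% of all probe sets. Gadd45g rose by 1.99 (SE 0.17, 3.96-fold, limma adjusted p = 0.000626), lead Gadd45b by 2.87 (SE 0.30, 7.30-fold, adjusted p = 0.00236) and the other Gadd45b probe set by 3.49 (SE 0.52, adjusted p = 0.0146). Gadd45g and lead Gadd45b remained called when any 1 of the 12 pools was left out, while the other Gadd45b probe set missed the threshold without ischemic pool 1, ischemic pool 2 or treated ischemic pool 2 (adjusted p 0.0538 to 0.0604), and without both arrays of unlike labels (0.0758). That call also ended with the deposited scale as a block (3.13, adjusted p = 0.168) and with the floor at the 20th percentile of the pools (4.28, 0.103). Gadd45a was higher by 1.20 (SE 0.40, interval 0.31 to 2.10, unadjusted p = 0.0134, adjusted p = 0.645) and did not pass.

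The p53 targets had small averaged differences. Mdm2 differed by 0.04 (interval -0.24 to 0.32), Ccng1 by -0.02 (-0.36 to 0.32) and lead Cdkn1a by 0.14 (-0.35 to 0.64). Perp differed by 0.02 (-0.70 to 0.74) and Fas by 0.11 (-0.36 to 0.58), with wider intervals, and the other Cdkn1a probe set by 0.01 (-0.94 to 0.95). The intervals of these genes all end below the lower end of the interval of Gadd45g, 1.61, and of lead Gadd45b, 2.19. The interval of Gadd45a overlaps both those of the p53 targets and that of Gadd45g.

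**Figure D3:**
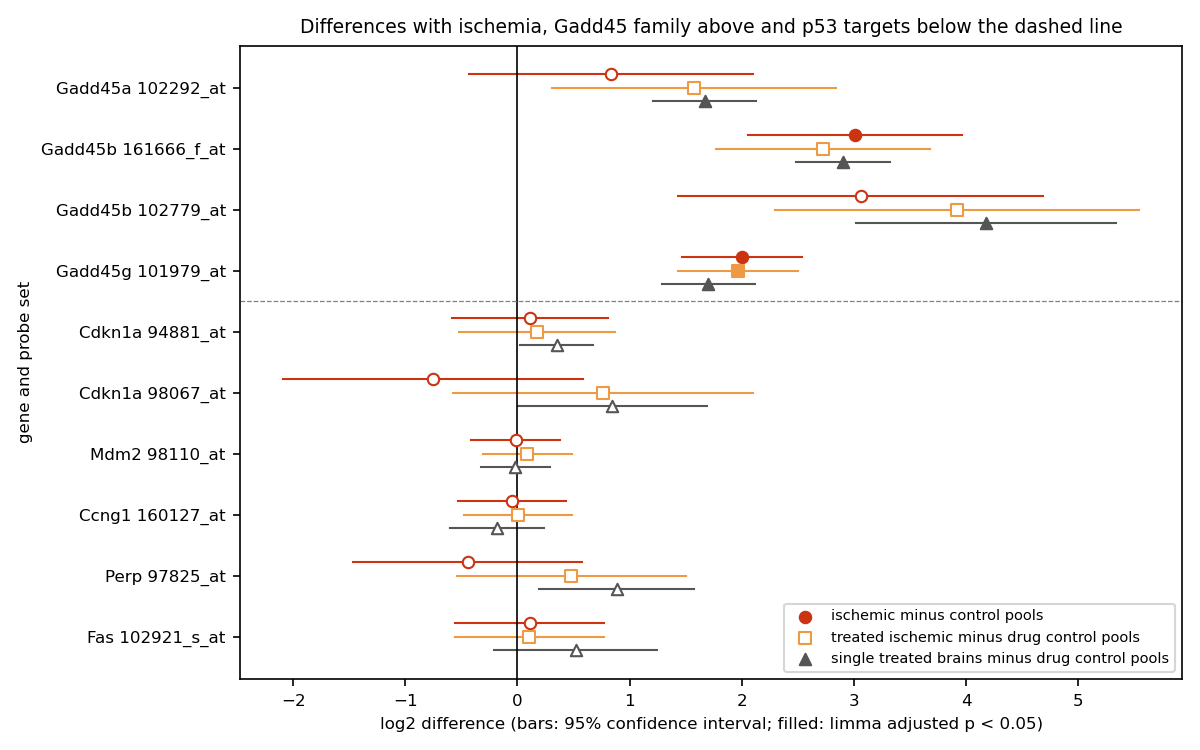
Log2 difference of each tested member in the comparisons of ischemic with control pools, treated ischemic with drug control pools, and single treated brains with drug control pools; points are limma estimates, bars are 95% confidence intervals and filled points have an adjusted p under 0.05. All filled points are Gadd45 probe sets, and the estimates for Mdm2 and Ccng1 lie between -0.18 and 0.09.

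No member passed the test for an effect of AEOL 10150. Drug control pool 1 and treated ischemic pool 1 count as drug arrays here, although their descriptions name saline and no drug. Treated ischemic pools 2 and 3 were deposited on other scales than the ischemic pools. Without the arrays of unlike labels, 0 members were called for the drug after or without ischemia. With the deposited scale as a block, 0 were called for the drug after ischemia. Comparing treated with untreated ischemic pools, 0 of 10 members were called, against 0.00975% of all probe sets (1 of 10259), and 0 had an unadjusted p under 0.05. The estimates were -0.09 (interval -1.05 to 0.86) for lead Gadd45b, -0.25 (-0.79 to 0.28) for Gadd45g, 0.25 (-1.02 to 1.52) for Gadd45a and -0.07 (-0.76 to 0.63) for lead Cdkn1a. The other Cdkn1a probe set was at 0.87 (-0.47 to 2.21), Perp at 0.70 (-0.32 to 1.73) and Fas at -0.45 (-1.11 to 0.22). Without ischemia, drug control against control pools, 0 of 10 were called, again against 0.00975%, and 0 had an unadjusted p under 0.05. There the estimates were 0.19 (-0.77 to 1.15) for lead Gadd45b, -0.22 (-0.75 to 0.31) for Gadd45g and -0.49 (-1.76 to 0.77) for Gadd45a. The difference between the ischemia responses with and without the drug was called for 0 of 10 members and for 0% of all probe sets, with 0 members and 213 probe sets at an unadjusted p under 0.05. It was -0.28 (-1.63 to 1.07) for lead Gadd45b and -0.03 (-0.79 to 0.72) for Gadd45g. For the other Cdkn1a probe set it was 1.51 (-0.38 to 3.40), with an unadjusted p of 0.106, and of 0.0483 (adjusted p = 0.953) with the replicate number as a block. Such intervals leave room for drug effects of about the size of their bounds, and limma with a variance trend also called 0 members in these 3 comparisons.

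In the 5 single treated brains every Gadd45 gene was above the drug control pools, Gadd45a included. Of 10 members 4 were called, all of them Gadd45 probe sets, against 6.51% of the 9907 probe sets tested in that fit. The median difference over the members was 0.87, beside -0.05 over all probe sets. The single brains were deposited on another intensity scale than the drug control pools and carried 1 brain rather than 6, and these differences cannot be told apart from that of ischemia in this comparison.

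Gadd45a ranged from 1621 to 2340 in the single brains, with a median of 1812, and from 493 to 793 in the drug control pools. The ranges did not overlap, and the difference was 1.67 (SE 0.20, 3.18-fold, limma adjusted p = 0.00565). Lead Gadd45b read 5383, 5489, 3483, 5298 and 4370 in brains 11, 12, 13, 14 and 16, higher by 2.90 (SE 0.18, 7.48-fold, limma adjusted p = 0.000564). The other Gadd45b probe set ranged from 2745 to 3873, higher by 4.18 (SE 0.50, limma adjusted p = 0.00565) against pools of which 2 were at the floor. Gadd45g read 4415, 5215, 3663, 4791 and 4810, higher by 1.70 (SE 0.18, 3.25-fold, limma adjusted p = 0.00338). Brain 13 was the lowest of the 5 for all 4 Gadd45 probe sets. All 4 calls held when any 1 of the 8 arrays was left out.

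Among the p53 targets in this comparison, Perp and lead Cdkn1a did not overlap between groups but missed the threshold. Perp ranged from 694 to 931 in the single brains and from 247 to 611 in the drug control pools, a difference of 0.88 (interval 0.19 to 1.58, adjusted p = 0.109), and with the floor at the 40th percentile it was 0.59 and called (adjusted p = 0.0389). Lead Cdkn1a ranged from 10063 to 11443 and from 6988 to 9868, a difference of 0.35 (interval 0.02 to 0.68, adjusted p = 0.156). Of all probe sets in this fit, 21% did not overlap. The other Cdkn1a probe set was higher by 0.85 (adjusted p = 0.176), and without drug control pool 1, described as given saline, by 1.32 (adjusted p = 0.0289). Mdm2 differed by -0.02 (interval -0.33 to 0.29) and Ccng1 by -0.18 (-0.60 to 0.24).

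Against the untreated ischemic pools, 0 of 10 members were called in the single brains, against 1.84% of 9889 probe sets, and 4 members and 2295 probe sets had an unadjusted p under 0.05. Values did not overlap for those 4 members, as for 17% of all probe sets. Drug, brains per array (1 against 6) and deposited scale all differ between these groups, and their parts cannot be told apart. Gadd45g was lower in every single brain than in every ischemic pool, with a difference of -0.52 (interval -0.87 to -0.17, limma adjusted p = 0.106). Perp was higher in every single brain, by 1.11 (SE 0.30, adjusted p = 0.0946), and by 1.53 (adjusted p = 0.0117) without ischemic pool 1. The second Gadd45b probe set was higher by 0.61 (adjusted p = 0.124), the other Cdkn1a probe set by 0.96 (0.173) and lead Gadd45b by 0.08 (interval -0.44 to 0.60). Against the treated ischemic pools, 0 of 10 members were called, against 0.102% of 9847 probe sets, and 0 members had an unadjusted p under 0.05. Gadd45g differed there by -0.27 (interval -0.71 to 0.18), lead Gadd45b by 0.18 (-0.28 to 0.63) and Gadd45a by 0.09 (-0.28 to 0.47).

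In order of mean log2 level, Gadd45g was highest in the ischemic pools (12.67 ± 0.09, SD, n = 3), then in the treated ischemic pools (12.42 ± 0.36, n = 3), the single brains (12.15 ± 0.19, n = 5), the control pools (10.67 ± 0.25, n = 3) and the drug control pools (10.45 ± 0.31, n = 3). Ischemic and treated ischemic pools overlapped, as did treated ischemic pools and single brains, and control and drug control pools. The only step without overlap between neighbours in that order was from the single brains down to the control pools. Lead Gadd45b had the same single gap, between 12.03 ± 0.26 in the treated ischemic pools (n = 3) and 9.31 ± 0.13 in the drug control pools (n = 3), with 12.21 ± 0.28 in the single brains, 12.13 ± 0.38 in the ischemic pools and 9.12 ± 1.02 in the control pools. Gadd45a went from 10.92 ± 0.23 in the single brains through 10.82 ± 0.14, 10.57 ± 1.16 and 9.74 ± 0.93 in the treated ischemic, ischemic and control pools to 9.25 ± 0.35 in the drug control pools, and all neighbours in that order overlapped. For Mdm2 the whole order spanned 12.20 ± 0.14 in the single brains to 12.30 ± 0.16 in the treated ischemic pools, within the spread of each group.

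The replicate number carried much of the spread of Gadd45a and of the second Cdkn1a probe set. Gadd45a was lowest on control pool 3, drug control pool 3 and ischemic pool 3, at 409, 493 and 608, and Cdkn1a at 98067_at was lowest there too, at 1669, 1177 and 975. Treated ischemic pool 3 was not low for either, at 1842 and 4427. The actin 3′/5′ ratio was 1.15 to 1.19 on the first 3 of those arrays and 1.34 on treated ischemic pool 3. The Gapdh 3′/5′ ratio was 1.04 to 1.09 on the first 3, within the 0.90 to 1.55 of the other arrays. The part of RNA integrity in these levels was not tested. With the replicate number as a block, Gadd45a differed between ischemic and control pools by the same 0.83 with a smaller error (SE 0.41, limma adjusted p = 0.753), and no member changed its call. Gadd45b and Gadd45g rose within every number, by 2.61, 2.64 and 3.77 for lead Gadd45b and by 1.88, 1.88 and 2.24 for Gadd45g.

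**Figure D4:**
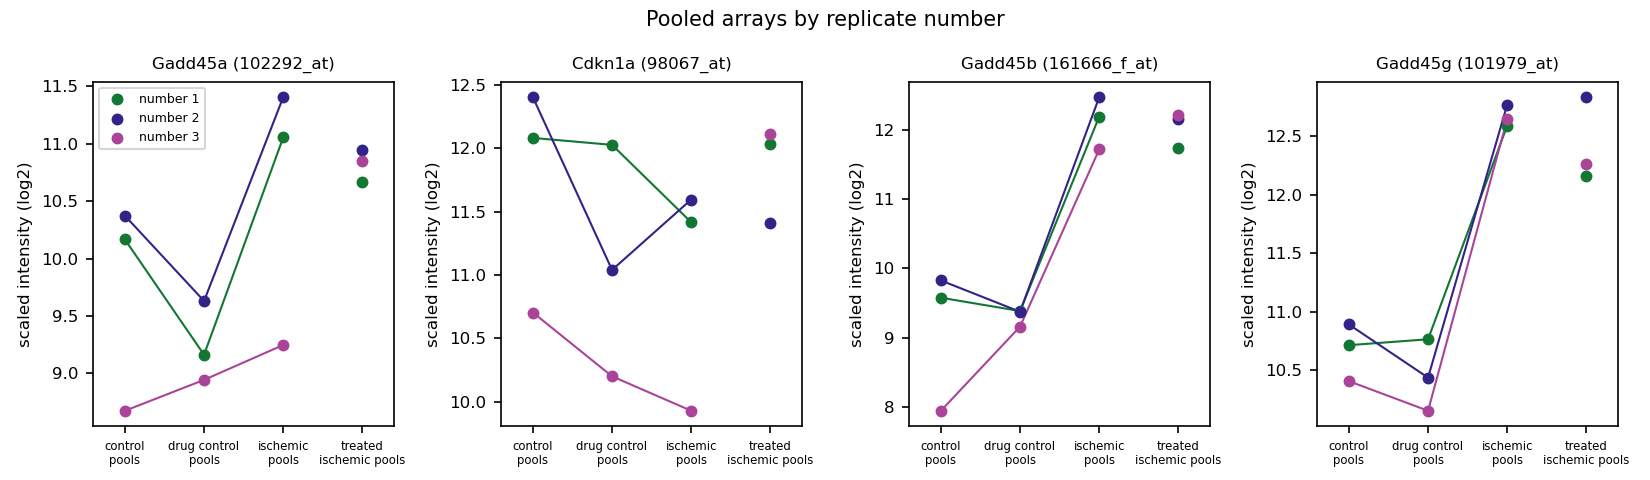
Scaled intensity on a log2 axis of 4 probe sets in the pools by replicate number; each colour is a number, and lines join the control, drug control and ischemic pools of that number, whose deviations went together, while the treated ischemic pools are left unjoined. Number 3 is lowest for Gadd45a and for Cdkn1a at 98067_at in the 3 joined groups, and Gadd45b and Gadd45g are higher in the ischemic pool than in the control pools at every number.

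As a description over the 12 pools, which share groups and arrays, the levels of Gadd45b and Gadd45g had a Pearson r of 0.96, Gadd45a and Gadd45b 0.81 and Gadd45a and Gadd45g 0.72. After removing group means these were 0.57, 0.83 and 0.40, and over the 5 single brains 0.80, 0.73 and 0.78. With Mdm2 the same genes had r between -0.03 and 0.14, and with lead Cdkn1a between 0.36 and 0.51. After removing group means, lead Cdkn1a had r of 0.77 with Gadd45g, 0.54 with Gadd45b and 0.50 with Gadd45a, and Fas, at the floor on 7 of the 12 pools, had 0.88 with Gadd45a. Among about 7825 probe sets, those with the pattern most like Gadd45b were Hsph1 (r = 0.97), Hspa1a (0.97), Bag3 (0.97), Procr (0.96) and Fos (0.96). For Gadd45g they were Jun (0.98), Fos (0.98), Hsph1 (0.98), Socs3 (0.97) and Hspa1a (0.97), so Hsph1, Hspa1a and Fos stood in both lists. These include chaperones of the heat shock response (Hsph1, Hspa1a, with the co-chaperone Bag3) and the AP-1 subunits Fos and Jun. Gadd45a was most like Hspe1 (0.95), Spsb1 (0.92), Cd9 (0.91), Iigp1 (0.91) and Pawr (0.91), and lead Cdkn1a most like Slc35b1 (0.94), Sash1 (0.93), Eif1b (0.93), Flt1 (0.92) and Ccdc12 (0.91). None of these 10 stood among the genes most like Gadd45b or Gadd45g.

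Other genes of the pathway, at the brightest probe set of each and averaged over the drug arms, gave 5 calls, for Btg1, Atf3, Junb, Ier3 and Egr1, beside 0.448% of all probe sets called in that comparison. Of 16 tested p53 targets in cell cycle and growth control, 3 had an unadjusted p under 0.05, all of them higher, beside 4.92% of all probe sets. The list median was 0.07 beside 0.01 over all probe sets. Of these 16, 1 was called, Btg1, an antiproliferative gene, higher by 0.73 (SE 0.12, limma adjusted p = 0.024). Its relative Btg2 was higher by 0.67 (adjusted p = 0.424), Hbegf by 1.04 (0.918) and Ccnd1 by 0.32 (0.998), while Sesn1 was lower by -0.28 (0.998). Of 8 p53 targets in cell death 0 were called (median 0.05, 1 at an unadjusted p under 0.05); Apaf1, a core part of the apoptosome, differed by -0.43 (adjusted p = 0.963) and Bid by 0.22 (1). Of 7 in DNA repair and redox defence 0 were called (median 0.11, 1 at an unadjusted p under 0.05); the damage sensor Xpc differed by -0.73 (0.918) and Gpx1 by 0.21 (1). Of 14 regulators and relatives of p53 0 were called (median -0.08, 0 at an unadjusted p under 0.05); the damage kinase Atm differed by -0.43 (0.998) and Mdm4, the partner of Mdm2, by -0.12 (1).

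Binding partners of Gadd45 and the kinases below them also gave 0 calls of 12 (median -0.08, 1 at an unadjusted p under 0.05). Map3k4, the kinase that Gadd45 proteins activate, differed by -0.38 (SE 0.15, limma adjusted p = 0.837), Map2k3 by 0.49 (1) and Mapk12 by 0.91 (1). Of 4 other cyclin-dependent kinase inhibitors (median 0.20) and 8 other genes of the death receptor pathway (median 0.14), 0 were called and 0 had an unadjusted p under 0.05. Cdkn1b, which encodes p27, differed by 0.52 (adjusted p = 1), and Casp8, the caspase that death receptors activate, by 0.42 (1).

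A list of other GADD and growth arrest genes also held stress-induced and immediate early genes such as Atf3, Junb and Ier3. It was chosen with earlier results of these data known, so its counts are a description and not a test. Its genes were higher in 16 of 17 cases, with a median of 0.57 beside 0.01 over all probe sets. Of the 17, 9 had an unadjusted p under 0.05, beside 4.92% of all probe sets. Those called were Atf3, a stress-induced transcription factor, by 3.16 (SE 0.17, 8.96-fold, limma adjusted p = 2.99e-05), Junb, an AP-1 subunit, by 1.59 (adjusted p = 0.00713), and Ier3, an immediate early gene, by 1.20 (adjusted p = 0.0121). Atf3 went from 9.33 ± 0.37 in the control pools (SD, n = 3) and 9.79 ± 0.28 in the drug control pools (n = 3) to 12.92 ± 0.15 in the ischemic pools (n = 3) and 12.53 ± 0.23 in the treated ischemic pools (n = 3). Ppp1r15a, a GADD gene that directs a phosphatase to the translation factor eIF2alpha, was higher by 2.54 (SE 0.69, adjusted p = 0.355), with 1 pool of each control group at the floor. Klf6 was higher by 0.79 (0.329), Jund by 0.31 (0.726) and Cebpd by 0.68 (0.74). Ddit3, which encodes the transcription factor CHOP, differed by 0.58 (0.849).

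Of 14 tested transcription factors known to act on Gadd45 promoters, 1 rose, the immediate early factor Egr1, by 1.88 (SE 0.14, 3.69-fold, limma adjusted p = 0.000283), while the list median was -0.08. Myc was higher by 1.02 (adjusted p = 0.701), Atf4, also in the preceding list, by 0.36 (0.816), the NF-kB subunit Rela by 0.24 (1), and Brca1 differed by -0.24 (1). In the single brains against the drug control pools, 7 of those 17 GADD and stress genes were called higher, among them Atf3 (2.76, adjusted p = 0.00328), Ppp1r15a (2.91, 0.0408), Trib3 (2.03, 0.0244) and Junb (2.07, 0.000656), with Jund, Ier3 and Klf6, and Egr1 rose by 1.93 (0.00138). Beside the 6.51% of all probe sets called there, Btg1 (0.72, adjusted p = 0.0346) was called higher and Sesn1 (-0.53, 0.0468) lower among the other p53 targets. Of 14 regulators and relatives of p53, those called there were Trp53bp1, a p53-binding repair protein (0.51, 0.0431), and Ube3a, a ubiquitin ligase (-1.30, 0.0109). Of 12 Gadd45 partners and kinases, the cyclin Ccnb2 was called (-0.89, 0.0233). Against the ischemic pools the calls in these lists were the death receptor adaptor Tradd (3.31, 0.000386), of 8 tested, and Ube3a (-1.12, 0.0445), of 15. These stood beside 1.84% of all probe sets called.

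**Figure D5:**
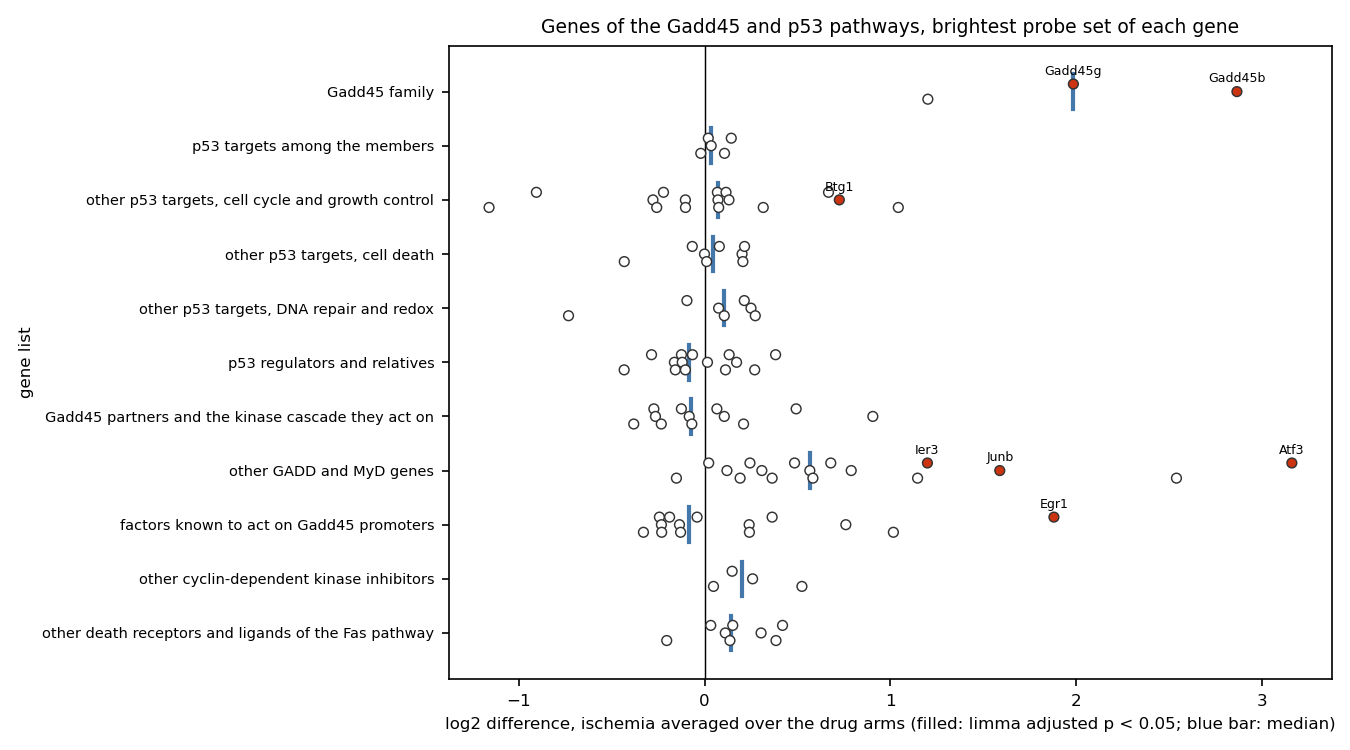
Log2 difference with ischemia, averaged over the drug arms, of each tested gene (lead probe set) in 11 lists of the Gadd45 and p53 pathways; each circle is a gene, filled where the limma adjusted p is under 0.05 and named, and the blue bar is the list median. The filled circles are Gadd45g, Gadd45b, Btg1, Ier3, Junb, Atf3 and Egr1, and the medians of the p53 target lists lie between 0.03 and 0.11.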

How the data were processed

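Gene expression was measured on 17 arrays of mouse brain. The deposited values are intensities on a linear scale, 1 per probe set and array; their software is not given in the sources used here. The authors deposited 10 arrays with a common trimmed mean (2nd to 98th percentile) of 2500 and 7 arrays, treated ischemic pools 2 and 3 and the single brains, on scales of their own between 129 and 210.

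The highest correlation of log2 values between arrays was 0.98, so none was a copy. Each array was multiplied to a trimmed mean of 2500. A floor was placed at the 25th percentile of the scaled pools (109.5) before taking log2, which understates differences of dim genes. The 66 array controls were left out. Probe sets that passed the floor on 3 or more of the arrays fitted entered limma 3.58.1 in R 4.3.3 (two-sided, Benjamini-Hochberg over all tested, threshold 0.05), with scripts tested on simulated data. The 12 pools were fitted together and the single brains against each group separately. Of the probe sets, 10855 had 1 gene symbol, 396 several and 1237 none. Precision is limited by having 3 arrays in each pooled group.

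Groups and replicate numbers of the pools came from the titles. The single brains were told from the treated ischemic pools, and numbered, by their descriptions, since their titles have the same form. Brain 11 is numbered 4 in its title. Treated ischemic pool 2 is described as replicate 1, against its title, and the title was followed. Named genes were all members, every called gene of 9 pathway lists in the averaged comparison with up to 4 others by p there, and the 5 most correlated probe sets of Gadd45a, Gadd45b, Gadd45g and Cdkn1a; Ddit3, Mdm4, S100a8 and list genes called only in the single brains were chosen after their values were seen. The members and lists were chosen with earlier results of these data known. Replicate numbers 1 to 3 recur in the pooled groups, and the labels do not say what they mark. Deviations of same-numbered control, drug control and ischemic pools correlated at 0.33 to 0.57 in every pair, so these numbers pair the samples by the data; with treated ischemic pools the range was -0.34 to 0.40. Alternatives were another scaling, floor, filter, variance model, grouping, block, and leaving out each array.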

Additional observations from a re-analysis of the deposited data

How the results depend on the processing

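Of 1706 recomputed member differences, 1631 kept their side of the threshold, 178 of them uncalled values that changed sign; 34 lost and 20 gained a call, and 21 values called in either setting reversed. The reversals all came from using values as deposited, unscaled, where the median of all probe sets moved to -2.65 in ischemia with the drug and to -3.93 against both sets of pools for the single brains; read against those shifts, the members' values follow the scale of the arrays.

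Unscaled, ischemia with the drug gave 4 calls, with -0.66 for Gadd45g, -2.45 for lead Cdkn1a, -2.54 for Mdm2, -2.62 for Ccng1 and -2.52 for Fas. The drug after ischemia gave 8 calls, with -2.38 for Gadd45a, -2.28 for Gadd45b (102779_at) and -2.56 for Mdm2. Single brains against drug control pools gave 9 calls, with -2.21 for Gadd45a, -0.98 for lead Gadd45b, -2.18 for Gadd45g, -3.53 and -3.04 for Cdkn1a, -3.00 for Perp and -3.36 for Fas. Against ischemic pools they gave 10, with -3.54 for Gadd45a, -3.27 and -3.80 for Gadd45b, -3.77 and -2.93 for Cdkn1a and -2.78 for Perp. Ischemia without the drug and the averaged comparison gave 0 calls unscaled.

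In ischemia without the drug, 2 members called became 1 under quantile normalization, alone or with the replicate block (that combination was chosen after seeing the data), 1 without the arrays with unlike labels, 0 when arrays were scaled to one median (which moved the median of all probe sets from 0.03 to -0.09), and 3 with the floor at the 40th percentile. In ischemia with the drug, 1 became 0 under that scaling, without the arrays with unlike labels and with the deposited scale as a block, 3 with the floor at the 40th percentile and 2 with a variance trend. Averaged, 3 became 2 with the deposited scale as a block, with the floor at the 20th percentile and without the arrays with unlike labels. For single brains against drug control pools, 4 became 5 with the floor at the 40th percentile (Perp). The count there was also 5 once drug control pool 1 was dropped or moved to the group its description names. The added call was then the p53 target Cdkn1a at 98067_at (1.32, limma adjusted p = 0.0289). The cause was not tested. Leaving out 1 array gave 0 to 2 calls without the drug, 0 to 1 with it and 2 to 3 averaged. In the single brains, leaving out 1 array gave 4 to 5 calls against drug control pools and 0 to 1 against ischemic pools. The replicate block gave 2, 1 and 3 calls without the drug, with it and averaged, and changed no call. Over all probe sets, leaving out an array took the calls from 22 to as few as 1 without the drug, and single brains against drug control pools from 645 to between 234 and 983.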
